A study of Mus musculus with 24 samples.

Results

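The comparison described here sets left ventricles of newborn mice that had lost Rhot1 and Rhot2 in cardiomyocytes against those of controls, both labelled day 7 of age. Libraries were taken by their labels of genotype and age, which gave 6 controls (m1022, m1064, m1066, m1088, m1091, m1101) and 6 double knockouts, called DKO (m1026, m1046, m1067, m1092, m1124, m1128). These are 12 of the 24 libraries of the series, and the other 12, 6 of each genotype labelled day 1, entered only where the effect of the genotype was compared between labelled ages. The deletion was made in the embryo and was selective for cardiomyocytes, per the labels, which name neither the promoter that drove the deletion nor what alleles the controls carried. By the extraction protocol RNA was isolated from left ventricular tissue, whereas the labels call the source cardiomyocyte. The protocol is followed here, so transcripts of cells that kept both genes would be counted too. Polyadenylated RNA was sequenced. In such tissue, fewer cells of a type and less RNA per cell cannot be told apart. The title of the study ties RHOT proteins to the motility of mitochondria and to the maturation of the sarcomere, and the comparison asks which transcripts differ between the genotypes.

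RHOT1 and RHOT2, also called MIRO1 and MIRO2, are GTPases of the outer mitochondrial membrane that join mitochondria to the adaptors of kinesin and dynein motors. When mitochondria fail, mammalian cells commonly start the integrated stress response, in which kinases phosphorylate the translation factor eIF2alpha, general protein synthesis falls, and the mRNA of the transcription factor ATF4 is translated. ATF4, usually paired with a C/EBP protein, then raises genes for serine and one-carbon metabolism, asparagine and proline synthesis, amino acid uptake, tRNA charging and the secreted hormones FGF21 and GDF15. In heart muscle with defects of mitochondrial genes this programme is a known early change.

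Total counts were 17334498 to 27272982 per library in controls and 22345262 to 30453874 in DKO. All 14 markers of ventricular cardiomyocytes were detected, with a summed level of 54783 to 68783 CPM in controls and 51816 to 63677 CPM in DKO (CPM is a count scaled by library size). Among controls, genes of the immature heart were higher at labelled day 7 than at labelled day 1. The slow myosin Myh7 had a median of 12370.0 against 2363 CPM, and the RNA-binding protein gene Igf2bp3 of 92.4 against 25.5 CPM, which runs against the known course after birth, so ages are given only as labelled. DKO m1124 and m1128 stood apart on the first principal component, which held 20.8% of the variance, at 36.6 and 34.7 against 4.42 to 10.99 in the other 4 DKO and −30.7 to −6.64 in controls. They were also the 2 DKO libraries with Y-linked transcripts (Eif2s3y over 10 CPM), which controls m1091 and m1101 carried too, and the DKO libraries with the most atrial transcripts, described with the markers. Results that rest on these 2 libraries are given with and without them.

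Of the deleted genes, Rhot1 RNA remained, and Rhot2 is listed at 0 in all 24 libraries, controls included, so it checks no label. Rhot1 (ENSMUSG00000017686) ran from 144 to 164 CPM (median 157) in controls and from 123 to 151 CPM (median 129) in DKO. DKO m1046 lay within the control range, and the log2 fold change of −0.25 ± 0.06 (SE, adjusted p = 0.087) did not pass the threshold of 0.05.

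At labelled day 7, 177 of 17352 tested genes (1.02%) differed between the genotypes with edgeR's quasi-likelihood test at a Benjamini-Hochberg adjusted p under 0.05. Of these, 119 were higher in DKO (0.686% of genes tested) and 58 lower (0.334%). The rises were larger than the falls, with a median log2 fold change of 0.75 against −0.45. More than 2-fold rises were seen for 47 genes, and 5 falls were more than 2-fold. In 99 of the rises and 45 of the falls the ranges of the 6 DKO and the 6 control libraries did not overlap, which held for 294 genes (1.69%) over all those tested. Without DKO m1124 and m1128, 66 genes rose and 11 fell, and 65 of the 119 rises and 10 of the 58 falls were among them. All 177 genes kept their sign there, which was likely in advance, since that fit shares most of its libraries with the one that called them. Single libraries also moved the count: 104 genes passed without m1124, 109 without m1128 and 302 without DKO m1026.

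**Figure D1:**
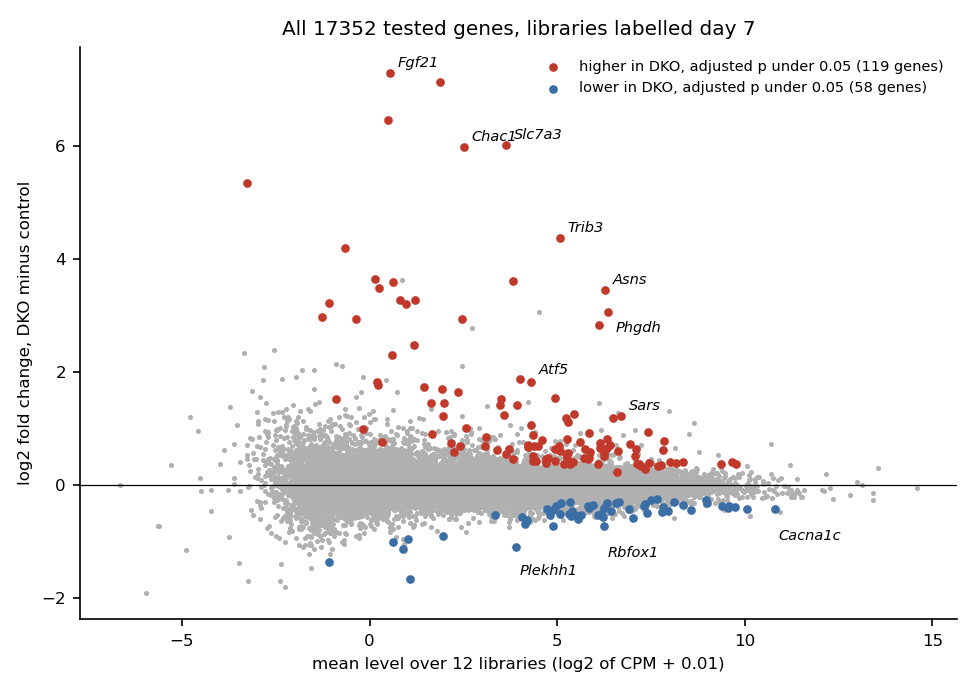
Log2 fold change of DKO minus control at labelled day 7 (y axis) against the mean level over the 12 libraries (x axis, log2 of CPM + 0.01) for every gene tested. Grey points did not pass the threshold, and the 119 rises in red reach further from 0 than the 58 falls in blue.

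The integrated stress response was the list with the largest number of rises. Of 25 regulators and effectors tested, 15 rose and 0 fell (the share of rises over all genes was 0.686%), 20 were higher and 0 lower at an unadjusted p under 0.05 (7.53% and 6.54% over all genes), and DESeq2 called 18 rises (1.84% over all genes) and limma-voom 15, with 0 falls each. The median log2 fold change of the list was 0.70, against −0.01 over all genes tested. Without DKO m1124 and m1128, 13 rose and 0 fell.

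A set of 3 transcription factors of this response rose, each with DKO ranges wholly above those of controls. Atf4 (ENSMUSG00000042406), its central factor, ran from 22.2 to 33.4 CPM (median 27.8) in controls and from 37.8 to 60.5 CPM (median 47.6) in DKO, with 0.81 ± 0.12 (SE, adjusted p = 0.0015) on the log2 scale. Atf5, a related factor tied to mitochondrial stress, went from 7.83–9.59 CPM (median 8.69) in controls to 27.1–33.9 CPM (median 31.3) in DKO, a 3.54-fold rise with adjusted p = 6.3e-09. Ddit3, which codes for the factor CHOP, ran from 12.8 to 20.9 CPM (median 17.9) in controls and from 27.1 to 36.2 CPM (median 29.6) in DKO (0.80 ± 0.12 on the log2 scale). All 6 DKO libraries were thus higher than every control for these genes, and for Atf5 the DKO libraries lay within a narrow band. Cebpg, a C/EBP partner of ATF4, rose by 0.63 ± 0.11 (adjusted p = 0.011), and this call ended without m1124 and m1128 (0.58). Atf3, another factor of the response, varied widely within both genotypes, from 5.21 to 76.2 CPM (median 22.7) in controls and from 8.39 to 56.3 CPM (median 20.96) in DKO, and its log2 fold change was −0.35 ± 0.66 (SE, adjusted p = 0.86). DKO m1067 held its highest DKO value.

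Among genes that feed back on the response or act in its later phase, the rises of Trib3, Chac1 and Nupr1 were steep. Trib3, a pseudokinase that restrains ATF4, ran from 2.82 to 3.65 CPM (median 2.94) in controls and from 34.8 to 102 CPM (median 59.4) in DKO, a 20.7-fold difference (adjusted p = 2.6e-07). Chac1, which breaks down glutathione, was near 0 in controls, at 0.0365 to 0.256 CPM (median 0.199), and reached 6.94 to 16.99 CPM (median 10.96) in DKO, with a log2 fold change of 5.99 ± 0.32. Nupr1, a stress-induced chromatin protein, went from 1.37–2.81 CPM (median 2.15) in controls to 16.98–39.2 CPM (median 24.9) in DKO (log2 fold change 3.62 ± 0.23). In each of these genes the lowest DKO library was several times the highest control, and m1124 and m1128 were the highest DKO libraries. Sesn2, which restrains mTORC1, rose 2.902-fold, from 13.5–19.2 CPM (median 15.1) in controls to 33.9–58.8 CPM (median 43.9) in DKO. Niban1, another stress-induced gene, rose by 0.65 ± 0.10 on the log2 scale (adjusted p = 0.0029). Ppp1r15a, the phosphatase subunit that reverses eIF2alpha phosphorylation, ran from 45.1 to 84.5 CPM (median 76.7) in controls and from 86.3 to 144 CPM (median 126) in DKO without overlap, and at 0.70 ± 0.16 (SE, adjusted p = 0.06) it missed the threshold.

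Promoters of rises in this list and in the list of serine, one-carbon and amino acid synthesis are shown for the composite element that ATF4 binds with C/EBP factors, searched as TGATGNAA, with N any base, on both strands (TTNCATCA on the other). No other motif was searched. Windows of 250 bases before to 50 bases after the start of each gene came from RefSeq on GRCm38.p6, whereas the counts were made on GRCm39, and 22 of the 24 rises in these lists had one. The sequences run 5′ to 3′ on the gene's strand up to the start, with matches in capitals. The lines give the genes with the smallest p that hold a match upstream of the start, and Phgdh, which had the smallest p of all and holds none.
Asns: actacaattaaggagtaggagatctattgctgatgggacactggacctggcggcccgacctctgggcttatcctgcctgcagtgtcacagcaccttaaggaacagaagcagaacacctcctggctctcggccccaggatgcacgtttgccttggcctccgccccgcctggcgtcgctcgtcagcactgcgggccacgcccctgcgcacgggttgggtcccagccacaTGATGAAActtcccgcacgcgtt
Chac1: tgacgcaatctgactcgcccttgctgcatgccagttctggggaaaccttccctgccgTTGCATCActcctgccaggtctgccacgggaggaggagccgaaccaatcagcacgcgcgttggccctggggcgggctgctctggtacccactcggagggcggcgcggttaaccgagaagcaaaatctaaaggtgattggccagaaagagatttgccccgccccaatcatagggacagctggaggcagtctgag
Nupr1: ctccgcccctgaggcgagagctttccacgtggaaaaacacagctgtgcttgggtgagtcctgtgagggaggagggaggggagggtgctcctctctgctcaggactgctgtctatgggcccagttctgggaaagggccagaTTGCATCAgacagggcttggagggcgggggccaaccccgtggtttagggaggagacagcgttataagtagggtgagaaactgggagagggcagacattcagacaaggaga
Pycr1: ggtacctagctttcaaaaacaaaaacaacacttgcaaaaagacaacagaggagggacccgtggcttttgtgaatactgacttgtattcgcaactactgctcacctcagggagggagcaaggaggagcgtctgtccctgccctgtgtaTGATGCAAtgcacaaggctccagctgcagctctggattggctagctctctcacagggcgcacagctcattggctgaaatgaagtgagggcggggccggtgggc
Fgf21: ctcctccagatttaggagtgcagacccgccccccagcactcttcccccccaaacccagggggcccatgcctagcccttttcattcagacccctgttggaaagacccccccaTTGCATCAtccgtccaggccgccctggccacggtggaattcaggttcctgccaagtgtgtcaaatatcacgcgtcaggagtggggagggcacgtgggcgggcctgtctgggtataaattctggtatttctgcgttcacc
Phgdh: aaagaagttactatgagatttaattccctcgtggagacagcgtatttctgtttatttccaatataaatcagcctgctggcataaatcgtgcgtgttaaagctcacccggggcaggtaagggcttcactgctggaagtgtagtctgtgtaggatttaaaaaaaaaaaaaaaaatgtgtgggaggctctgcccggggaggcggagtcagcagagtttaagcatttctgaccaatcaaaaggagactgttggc

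They lie at chr6:7693210-7693459 (Asns, minus strand), chr2:119350992-119351241 (Chac1, plus strand), chr7:126625471-126625720 (Nupr1, minus strand), chr11:120643749-120643998 (Pycr1, minus strand), chr7:45615491-45615740 (Fgf21, minus strand) and chr3:98339970-98340219 (Phgdh, minus strand). In Asns the match began 23 bases before the start and read as written. It began 103 bases before the start in Pycr1, also as written. In Nupr1, Fgf21 and Chac1 it lay on the other strand, 110, 139 and 193 bases before the start. In Trib3 the match lay past the start, on the other strand, within the 30 bases at chr2:152344028-152344057 (minus strand).
Trib3: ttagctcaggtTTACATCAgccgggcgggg

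The motif was present in 17 of the 76 protein-coding rises that had a promoter in the table (22.4%) and in 1 of 41 falls (2.44%). Over all 11429 tested protein-coding genes with a promoter it was present in 2.91%, and in 3.97% of the 32851 promoters of the table. Within the lists it was found in 5 of 15 rises of the stress response, 2 of 7 of serine, one-carbon and amino acid synthesis, 1 of 3 of the transporters and 5 of 8 of the cytosolic tRNA synthetases. A match in these letters is a description of the sequence, and binding was not measured.

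The genes of the secreted factors of this response were low in controls and rose in DKO. Fgf21 (ENSMUSG00000030827) was covered by 2 counts summed over controls and by 453 summed over DKO. Scaled to library totals the ratio was 211.8, with exact 95% limits (Clopper-Pearson, counting error) of 58.3 and 1755. Its DKO levels ran from 0.759 to 6.84 CPM (median 1.496), with 6.84 and 5.52 CPM in m1124 and m1128 and at most 1.54 in the other 4. Gdf15 ran from 0.618 to 1.96 CPM (median 1.21) in controls and from 3.59 to 21.3 CPM (median 5.54) in DKO (log2 fold change 2.93 ± 0.53 (SE, adjusted p = 0.02)), with 18.99 and 21.3 CPM in m1124 and m1128 and 3.59 to 6.21 in the others. Both hormones were thus highest in the same 2 libraries, and with these left out Gdf15 was at 1.86 (adjusted p = 0.0027) and Fgf21 at 6.06 (adjusted p = 2.9e-05). The Gdf15 call ended without control m1064 or m1066 (2.79 to 2.88 without 1 of them). Adm2, which codes for the peptide intermedin, had 4 counts in controls and 444 in DKO, a ratio of 103.8 (interval 40.3 to 382.7). Angptl6, an angiopoietin-like secreted protein outside the lists, rose 3.25-fold, from 1.06–2.32 CPM (median 1.799) in controls to 3.63–9.15 CPM (median 5.61) in DKO. Stc2, the secreted glycoprotein stanniocalcin 2, rose by 0.88 ± 0.18 (adjusted p = 0.03). Its call ended without DKO m1124 or m1128 or control m1022, m1064, m1066, m1088 or m1101 (0.80 to 0.92 without 1 of them).

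The kinases and the mitochondrial relay that start the response did not pass the threshold at the level of RNA. Of 16 genes tested, 0 were called with edgeR, 3 were higher and 0 lower at an unadjusted p under 0.05, and DESeq2 and limma-voom called 0. Over all genes tested 1.02% were called, so 0 of 16 is near that share. At the same unadjusted p, 7.53% of all genes were higher and 6.54% lower. Eif2ak1, the kinase HRI, ran from 35.7 to 46.6 CPM (median 42.4) in controls and from 33.4 to 43.7 CPM (median 35.2) in DKO (−0.17 ± 0.09 on the log2 scale). Dele1, which carries the mitochondrial signal to HRI, was at −0.05 ± 0.06, and Oma1, the protease that cleaves it, at −0.06 ± 0.12, with overlapping groups for all 3 genes. These values say nothing about phosphorylation or cleavage.

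**Figure D2:**
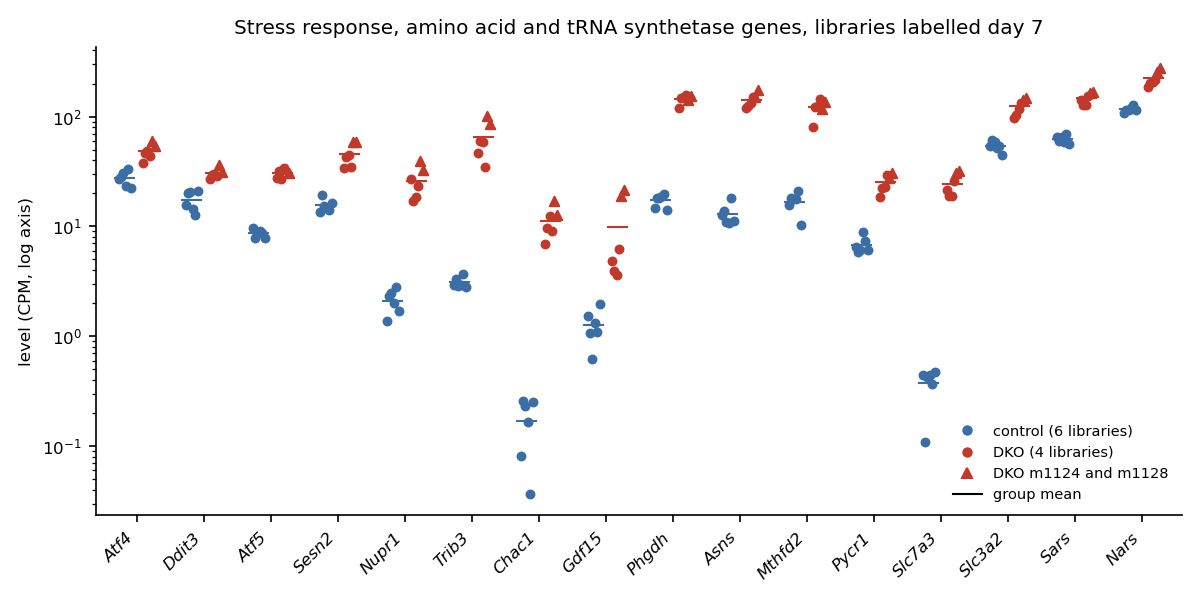
Level in CPM (log axis) of 16 genes that rose, by library: controls in blue, DKO in red, with triangles for DKO m1124 and m1128 and lines for group means. No DKO library overlaps a control in any of the 16 genes. The triangles are the highest DKO points in several of them, such as Trib3, Chac1, Nupr1, Gdf15, Slc7a3, Slc3a2 and Nars.

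Enzymes that make serine, one-carbon units, asparagine and proline rose, 9 of 28 tested, and 0 fell (11 and 0 with DESeq2, 8 and 0 without m1124 and m1128). Over all genes tested 0.686% rose and 0.334% fell. The median of the list was 0.11, against −0.01 over all genes tested. Phgdh (ENSMUSG00000053398), the first enzyme of serine synthesis from glycolysis, ran from 14.01 to 19.6 CPM (median 18.1) in controls and from 119 to 156 CPM (median 149) in DKO, an 8.35-fold rise with the smallest p of all genes (adjusted p = 3.3e-11). Psat1, the second enzyme, was at 36.5–50.9 CPM (median 44.8) in controls and at 45.8–69.2 CPM (median 63.6) in DKO, with DKO m1026 within the control range (0.48 ± 0.10 (SE, adjusted p = 0.03)). Psph, the third, was at 0.08 ± 0.08 (SE, adjusted p = 0.7), with overlapping groups. The steps of this pathway thus differed widely in size, and the Psat1 call ended without DKO m1046, m1067, m1092, m1124 or m1128 or control m1022, m1066, m1091 or m1101 (0.44 to 0.49 without 1 of them).

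In the mitochondrial folate pathway, Mthfd2 rose 7.16-fold, from 10.3–21.1 CPM (median 17.8) in controls to 81.2–146 CPM (median 124) in DKO (adjusted p = 1.8e-07). Aldh1l2, which oxidizes formyl-tetrahydrofolate there, rose from 22.7–30.8 CPM (median 25.2) in controls to 58.6–67.9 CPM (median 60.7) in DKO, a log2 fold change of 1.26 ± 0.08 with close values among DKO libraries. Mthfd1l, which releases formate, rose by 0.69 ± 0.11. Shmt2, which splits serine in mitochondria, was at 69.8–122 CPM (median 102) in controls and at 110.5–160.0 CPM (median 132) in DKO and did not pass (0.39 ± 0.11 (SE, adjusted p = 0.12)). Asns (ENSMUSG00000029752), asparagine synthetase, rose 10.9-fold, from 10.8–18.1 CPM (median 11.96) in controls to 119.7–176 CPM (median 141) in DKO. For proline, Pycr1, the last step, rose from 5.85–8.92 CPM (median 6.34) in controls to 18.4–30.7 CPM (median 25.1) in DKO (log2 fold change 1.88 ± 0.14), and Aldh18a1, the first step, rose by 0.41 ± 0.06. Every DKO library exceeded every control for Mthfd2, Aldh1l2, Asns and both proline genes. Cth, which makes cysteine, was below 1 CPM in controls and ran from 2.69 to 7.72 CPM (median 3.35) in DKO (3.28 ± 0.39 (SE, adjusted p = 0.00033)). From the list of the stress response, Gpt2, the mitochondrial alanine transaminase, rose from 9.91–14.6 CPM (median 13.1) in controls to 21.7–30.8 CPM (median 26.9) in DKO, and Pck2, mitochondrial PEP carboxykinase, rose by 0.56 ± 0.09.

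Amino acid transporters rose for 4 of 23 tested (0.686% of all genes rose) and fell for 0, with a median of 0.13. Slc7a3, a carrier of cationic amino acids, was at 0.110 to 0.471 CPM (median 0.434) in controls and at 18.8 to 32.1 CPM (median 23.5) in DKO. In raw counts these were 56 and 3946 over the 6 libraries, a ratio of 65.9 (interval 50.6 to 87.4). Slc3a2, the heavy chain shared by several carriers, rose 2.27-fold, from 44.6–61.2 CPM (median 53.7) in controls to 97.9–148 CPM (median 125) in DKO. Slc1a4, which carries serine and other neutral amino acids, rose by 1.52 ± 0.20, and Slc7a1, another cationic carrier, by 0.64 ± 0.11, the latter call ending without m1124 and m1128 (0.52). In all 4 genes m1124 and m1128 were above the other 4 DKO libraries. Slc7a11, the cystine carrier, was at 0.35 ± 0.19 (SE, adjusted p = 0.42), with DKO m1026 far below the rest, and Slc7a5, the usual partner of Slc3a2, is listed at 0 in every library. How reads were counted is not given, so this 0 does not show that Slc7a5 was absent.

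Of the 23 cytosolic tRNA synthetases, 11 rose (0.686% of all genes did) and 0 fell (13 and 0 with DESeq2). The list had 21 genes above 0 and a median of 0.33. The same number, 11, rose without m1124 and m1128. Sars, which charges serine, rose from 56.4–69.1 CPM (median 62.8) in controls to 127–166 CPM (median 148) in DKO, 1.22 ± 0.08 (SE, adjusted p = 2.6e-07) on the log2 scale. Nars, for asparagine, rose from 108–126 CPM (median 115) in controls to 186–275 CPM (median 211) in DKO (log2 fold change 0.93 ± 0.09). Cars, for cysteine, rose by 0.92 ± 0.09, and Gars, for glycine, by 0.78 ± 0.07, and the remaining 7 (Yars, Iars, Mars1, Eprs, Aars, Tars and Lars) by 0.51 to 0.74. No DKO library overlapped the controls in any of the 11, and in 10 of them m1124 and m1128 were above the other DKO libraries. Wars, for tryptophan, was at 0.14 ± 0.07 (SE, adjusted p = 0.4) with overlapping groups. Xpot, which exports tRNAs from the nucleus and belongs to no list, rose from 58.96–69.4 CPM (median 63.6) in controls to 93.5–122 CPM (median 98.7) in DKO (0.70 ± 0.08 (SE, adjusted p = 8.9e-05)). Of the 17 synthetases of the mitochondrial matrix, 0 passed with edgeR, DESeq2 or limma-voom, 0 were higher and 1 lower at an unadjusted p under 0.05, and the list's median was −0.02. With 1.02% of all genes called, 0 of 17 is near that share.

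**Figure D3:**
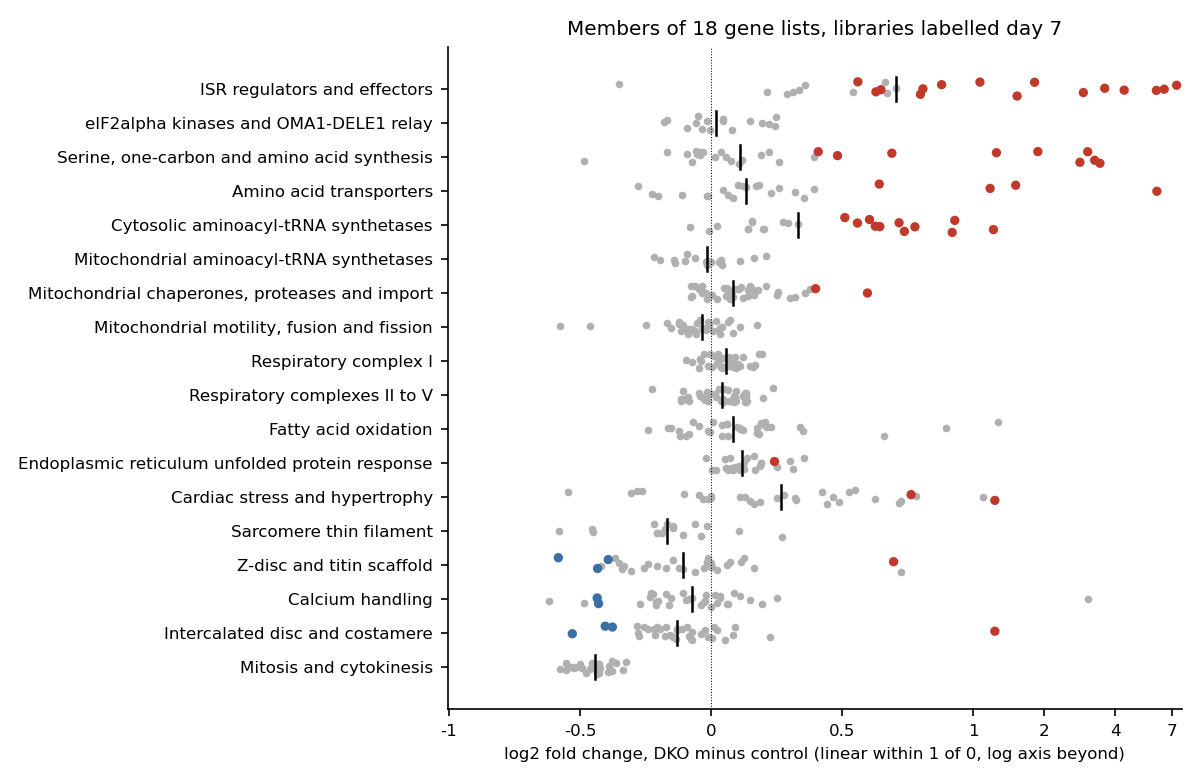
Log2 fold change of DKO minus control (x axis, linear within 1 of 0 and logarithmic beyond) for each member of 18 gene lists. Red points rose, blue points fell, grey points did not pass, and vertical lines are list medians, which lie between −0.44 for mitosis and 0.70 for the stress response.

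Transcripts for the machinery of the mitochondrion itself were not called with edgeR. Over 8 lists (complex I, complexes II to V, mitochondrial DNA and RNA, mitochondrial tRNA synthetases, TCA cycle, fatty acid oxidation, motility and dynamics, and the PGC-1, PPAR and ERR regulators), 0 of 238 genes passed with edgeR or limma-voom and 2 with DESeq2, and 20 had an unadjusted p under 0.05, 9 of them higher. Over all genes tested 1.02% were called and 14.1% had such a p, so the count of 0 calls is near the share over all genes. The median over these genes was 0.01, with a range of −0.58 to 1.27. In the list of the deleted genes' own pathway, mitochondrial motility, fusion and fission, 0 of 35 were called and 0 were higher and 5 lower at an unadjusted p under 0.05. Among chaperones, proteases and import, 2 of 40 rose and 0 fell (0.686% and 0.334% over all genes tested). Hspa9, the matrix chaperone mortalin, ran from 667 to 709 CPM (median 696) in controls and from 850.4 to 971 CPM (median 929) in DKO, which did not overlap (0.40 ± 0.05 (SE, adjusted p = 0.0004)). Lonp1, a matrix protease, was at 47.8–64.7 CPM (median 63.5) in controls and at 63.2–107 CPM (median 92.1) in DKO, with DKO m1046 within the control range (0.60 ± 0.11 (SE, adjusted p = 0.013), and 0.53 without m1124 and m1128, where the call ended). Hspd1, the partner chaperonin, was at 0.21 ± 0.06 (SE, adjusted p = 0.14) with DKO above controls, and Clpp, another protease, at 0.02 ± 0.06. In the list of the unfolded protein response of the endoplasmic reticulum, 27 of 28 genes lay above 0 with a median of 0.12, and the call was Derl1, a component of protein retrotranslocation, at 0.24 ± 0.05 (SE, adjusted p = 0.046). That call ended without DKO m1046, m1067, m1092, m1124 or m1128 or control m1022, m1064, m1066, m1088, m1091 or m1101 (0.22 to 0.25 without 1 of them).

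Genes of the cardiomyocyte's calcium channel and of its contractile scaffold were among the falls, which were smaller than the rises. Cacna1c (ENSMUSG00000051331), the pore of the L-type calcium channel, ran from 1911 to 2179 CPM (median 2046) in controls and from 1420.0 to 1674 CPM (median 1502) in DKO, a fall of 0.43 ± 0.06 on the log2 scale (adjusted p = 0.0012) with groups that did not overlap. Cacnb2, its beta subunit, was at 367–506 CPM (median 436) in controls and at 265–381 CPM (median 319.5) in DKO, with an overlap (−0.43 ± 0.09 (SE, adjusted p = 0.037)). Its call ended without DKO m1067, m1124 or m1128 or control m1022, m1088, m1091 or m1101 (−0.44 to −0.39 without 1 of them). Ryr2, the release channel that the L-type channel triggers, was at 1829–2676 CPM (median 2404) in controls and at 1331–2064 CPM (median 1639) in DKO, with DKO m1067 and m1092 in the control range, and missed the threshold (−0.49 ± 0.11 (SE, adjusted p = 0.06)). Among 35 calcium handling genes there were 0 rises and 2 falls (1 and 10 at an unadjusted p under 0.05), and the list's median was −0.07. Over all genes tested 0.686% rose and 0.334% fell, and 7.53% were higher and 6.54% lower at that unadjusted p. The markers of ventricular cardiomyocytes, given with the other markers, had a median of −0.14, and the part of that shift in the falls of cardiomyocyte genes was not tested. Fgf14, a modulator of sodium channels in neurons and the single call among 33 ion channel genes, fell by 0.51 ± 0.11 (adjusted p = 0.037). That call ended without DKO m1067, m1092, m1124 or m1128 or control m1022, m1064, m1066, m1088 or m1101 (−0.51 to −0.47 without 1 of them).

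In the Z-disc and titin scaffold, 1 of 31 genes rose and 3 fell, against 0.686% and 0.334% of all genes tested. DESeq2 called 2 rises and 6 falls in this list. Cmya5, myospryn, which sits at the Z-disc and costamere, ran from 139 to 172 CPM (median 154) in controls and from 88.6 to 118 CPM (median 109) in DKO, a fall of 0.58 ± 0.08 (adjusted p = 0.001). Palld, palladin, which cross-links actin, fell from 1147–1263 CPM (median 1218) in controls to 783–1055 CPM (median 916) in DKO (−0.43 ± 0.07 (SE, adjusted p = 0.0064)). Trim55, the ubiquitin ligase MuRF2 that binds titin, fell from 914–1024 CPM (median 962) in controls to 686–799 CPM (median 739) in DKO (−0.39 ± 0.06 (SE, adjusted p = 0.0017)). In all 3 genes every DKO library was below every control and m1124 and m1128 were the lowest 2. All 3 passed without these libraries, at −0.48, −0.34 and −0.34. Trim54, the related ligase MuRF3, rose from 4.74–7.27 CPM (median 6.68) in controls to 7.298–13 CPM (median 10.8) in DKO (0.70 ± 0.14 (SE, adjusted p = 0.028)), a call that ended without DKO m1067, m1092 or m1124 or control m1022, m1064, m1066, m1088 or m1101 (0.62 to 0.72 without 1 of them).

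Attachment genes fell for 3 of 37 members of the intercalated disc and costamere list, with 1 rise (0.334% of all genes fell and 0.686% rose). At an unadjusted p under 0.05, 12 members were lower and 1 higher, against 6.54% and 7.53% of all genes tested. Itgb1bp2, melusin, which binds the tail of beta 1 integrin in muscle, ran from 72.6 to 86.95 CPM (median 78.5) in controls and from 47.01 to 61.96 CPM (median 56.9) in DKO, a fall of 0.53 ± 0.07 (adjusted p = 0.0011), with −0.56 without m1124 and m1128. Ctnna3, a catenin of the heart's adherens junctions, fell by 0.40 ± 0.08, and DKO m1026 lay among the controls. Its call ended without DKO m1124 or m1128 or control m1022 or m1088 (−0.40 to −0.38 without 1 of them). Tln2, which links integrins to actin, fell from 153–218 CPM (median 178) in controls to 133–145 CPM (median 138) in DKO (−0.38 ± 0.08 (SE, adjusted p = 0.032)), a call that ended without DKO m1067, m1092, m1124 or m1128 or control m1022, m1091 or m1101 (−0.39 to −0.36 without 1 of them). The rise was Xirp2, an actin-binding gene of the disc that is also in the list of cardiac stress, from 5.25–10.3 CPM (median 6.13) in controls to 8.74–23.99 CPM (median 15.8) in DKO, with an overlap (1.24 ± 0.25 (SE, adjusted p = 0.027)). Its call ended without DKO m1124 or m1128 or control m1022, m1064, m1088 or m1101 (1.13 to 1.23 without 1 of them).

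**Figure D4:**
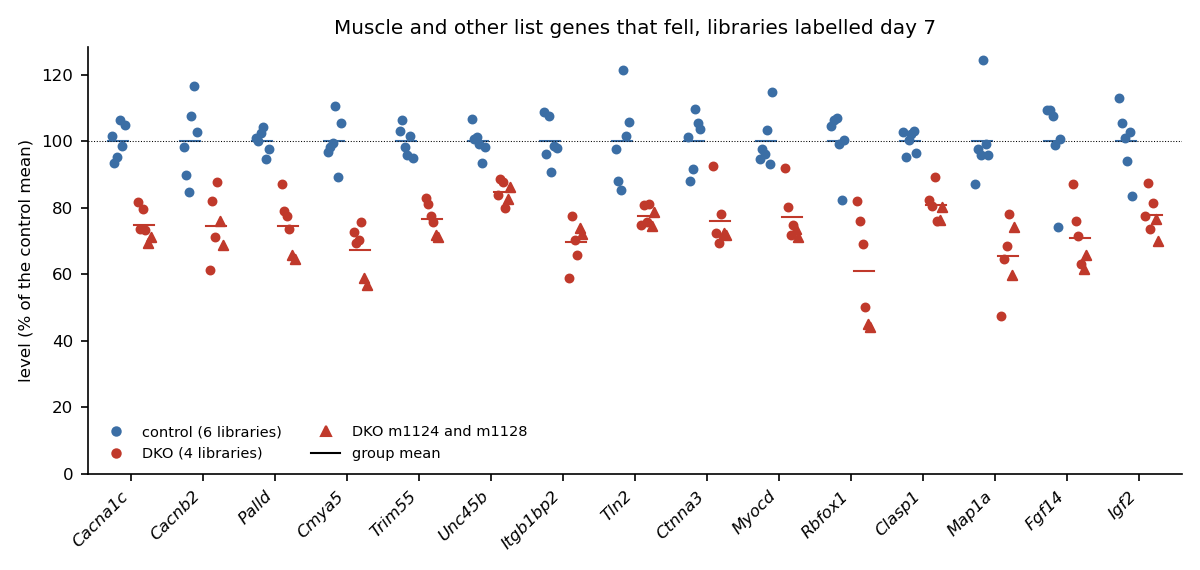
Level of 15 list genes that fell, by library, as a percentage of the control mean (y axis): controls in blue, DKO in red, triangles for DKO m1124 and m1128, lines for group means. The DKO means lie below 90% of the control mean in each gene, with the lowest single libraries in Rbfox1 and Map1a.

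Other muscle and regulatory genes of the lists fell. Myocd, myocardin, a coactivator of serum response factor, fell from 804–990.4 CPM (median 836) in controls to 615–795 CPM (median 641) in DKO (−0.38 ± 0.08 (SE, adjusted p = 0.023)). Rbfox1, a splicing factor of heart and brain, fell from 77.8–101 CPM (median 96.8) in controls to 41.7–77.4 CPM (median 56.2) in DKO, −0.72 ± 0.15 (SE, adjusted p = 0.041) on the log2 scale. Unc45b, the chaperone that folds myosin, fell from 204–233 CPM (median 219) in controls to 175–194 CPM (median 186) in DKO (−0.25 ± 0.05 (SE, adjusted p = 0.037)). In these 3 genes the groups did not overlap, and Rbfox1 was lowest in m1092, m1124 and m1128. The Myocd call ended without DKO m1067, m1092, m1124 or m1128 or control m1088 (−0.37 to −0.35 without 1 of them). For Rbfox1 it ended without DKO m1067, m1092, m1124 or m1128 or control m1022, m1064, m1066, m1088 or m1101 (−0.75 to −0.64 without 1 of them), and for Unc45b without DKO m1067, m1092, m1124 or m1128 or control m1022, m1064, m1066, m1088 or m1101 (−0.26 to −0.22 without 1 of them). Clasp1, which stabilizes microtubules, fell by 0.32 ± 0.05 (adjusted p = 0.0071, and −0.29 with the call ended without m1124 and m1128). Map1a, a microtubule-associated protein best known from neurons, fell from 19.4–27.6 CPM (median 21.5) in controls to 10.5–17.3 CPM (median 14.8) in DKO (−0.62 ± 0.12 (SE, adjusted p = 0.014)), a call that ended without DKO m1124 (−0.59 without it). Igf2, a fetal growth factor, fell by 0.37 ± 0.08 (adjusted p = 0.028), which was lost without DKO m1067, m1092, m1124 or m1128 or control m1022, m1064, m1066 or m1091 (−0.38 to −0.33 without 1 of them). Tnni2, the fast skeletal troponin I, was low and fell from 2.26–3.34 CPM (median 2.56) in controls to 0.997–1.94 CPM (median 1.24) in DKO, lost without DKO m1092, m1124 or m1128 or control m1022 or m1064 (−0.93 to −0.88 without 1 of them).

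The major sarcomere isoforms did not pass. Myh6, the fast cardiac myosin, was at −0.05 ± 0.11 (SE, adjusted p = 0.89) on the log2 scale, and Myh7 at −0.26 ± 0.16 (SE, adjusted p = 0.49). Of the troponin I genes, fetal Tnni1 had −0.22 ± 0.08 (SE, adjusted p = 0.24) and adult Tnni3 −0.02 ± 0.09 (SE, adjusted p = 0.96). All 4 had overlapping groups. Of 17 thin filament genes, 0 rose and 0 fell with edgeR, while 0 were higher and 8 lower at an unadjusted p under 0.05, 4 fell with DESeq2 and 0 with limma-voom. With 1.02% of all genes called, 0 of 17 is near that share, and 6.54% of all genes were lower at that unadjusted p.

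Natriuretic peptides and the stretch gene Ankrd1 were not called either. Nppa, atrial natriuretic peptide, ran from 148 to 482 CPM (median 209.6) in controls and from 287 to 999 CPM (median 399) in DKO, with 999 and 840.5 CPM in m1124 and m1128 and 482 in control m1101 (1.10 ± 0.37 (SE, adjusted p = 0.21)). Nppb, B-type natriuretic peptide, was at 0.78 ± 0.44 (SE, adjusted p = 0.46), and Ankrd1 at 0.72 ± 0.22 (SE, adjusted p = 0.16). Without m1124 and m1128 these 3 genes were at 0.50, 0.47 and 0.43. Of 32 genes of cardiac stress and hypertrophy, 2 rose and 0 fell, against 0.686% and 0.334% of all genes tested. The rises were Xirp2, given above, and Egr1, an immediate early transcription factor. Egr1 went from 27.6–43.1 CPM (median 35.1) in controls to 38.2–79.6 CPM (median 60.5) in DKO (0.76 ± 0.16 (SE, adjusted p = 0.031)). The Egr1 call ended without DKO m1067, m1092, m1124 or m1128 or control m1022, m1064, m1088 or m1101 (0.67 to 0.79 without 1 of them), and without m1124 and m1128 the list had 0 calls.

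Cell cycle genes were not called. Over all genes tested 1.02% were called and 0.686% rose, so the counts of 0 calls given here are near the share over all genes. At an unadjusted p under 0.05, 7.53% of all genes were higher and 6.54% lower. Of 30 genes of mitosis and cytokinesis, 0 passed with edgeR, DESeq2 or limma-voom, although all 30 lay below 0, between −0.58 and −0.32, and 4 were lower at an unadjusted p under 0.05. Mki67, which marks cycling cells, ran from 52.9 to 160.3 CPM (median 139.6) in controls and from 56.4 to 122 CPM (median 88.9) in DKO (−0.56 ± 0.27 (SE, adjusted p = 0.39)), with control m1101 and DKO m1026, m1124 and m1128 low and the other 8 libraries above 100 CPM. Of 27 genes of DNA replication, 0 were called, with 0 higher and 1 lower at an unadjusted p under 0.05 and 0 calls with DESeq2. Collagen and fibroblast matrix had 0 of 30 calls with edgeR and 2 rises with DESeq2, and 9 genes were higher and 1 lower at an unadjusted p under 0.05. Lysosome and autophagy had 0 of 45 calls, 11 higher and 0 lower at an unadjusted p under 0.05, and 3 rises with DESeq2. Glycolysis had 0 of 25 calls, 1 gene higher and 1 lower at an unadjusted p under 0.05, and 1 fall with DESeq2. Hypoxia targets had 0 of 24, with 2 higher and 2 lower at an unadjusted p under 0.05 and 1 rise with DESeq2, and the interferon response had 0 of 28, with 0 higher and 1 lower and 0 with DESeq2. Among p53 and apoptosis genes 2 of 32 rose, Sesn2 and Aen, an apoptotic nuclease, at 0.49 ± 0.10 (SE, adjusted p = 0.023), the latter lost without DKO m1124 or m1128 or control m1022, m1064 or m1066 (0.44 to 0.49 without 1 of them). In the list of glutathione and NRF2, 1 of 38 rose, Nfe2l1, a regulator of proteasome genes, at 0.29 ± 0.05 (SE, adjusted p = 0.014) (0.27, with the call ended, without m1124 and m1128).

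Markers of other cells of the heart had a single call, the fall of Tnni2 in the skeletal muscle list, over 12 marker lists. Over all genes tested 1.02% were called, so 0 calls in a list of this size is near that share. The skeletal muscle list as a whole went the other way, with 6 of 9 tested genes above 0 and a median of 0.42. In it, 5 genes were higher and 2 lower at an unadjusted p under 0.05, and DESeq2 called 1 rise and 1 fall. Most members lay above 0 in the lists of endothelial cells (10 of 12, median 0.06), endocardium (7 of 8, median 0.14), fibroblasts (10 of 12, median 0.18) and macrophages (11 of 12, median 0.23). The share was lower for smooth muscle and pericytes (7 of 11, median 0.10) and for granulocytes and lymphocytes (4 of 6, median 0.16). It was also lower for Schwann cells and nerve (4 of 7, median 0.06), erythroid cells (4 of 8, median −0.09) and epicardium (3 of 9, median −0.11). Of the 14 markers of ventricular cardiomyocytes, 1 lay above 0, with a median of −0.14 (−0.08 without m1124 and m1128). In that list 0 were called, 0 were higher and 6 lower at an unadjusted p under 0.05, and DESeq2 called 4 falls. Macrophage markers summed to 88.8 to 109 CPM in controls and 107 to 144 CPM in DKO, with 0 of 12 called, 4 higher and 0 lower at an unadjusted p under 0.05, and 2 rises with DESeq2. Fibroblast markers summed to 2804 to 4854 CPM in controls and 3881 to 4595 CPM in DKO, and erythroid markers to 7524 to 10935 and 6539 to 9515 CPM. Atrial markers summed to 505 to 828 CPM in controls and 721 to 2953 CPM in DKO, with 0 of 11 called by edgeR, 3 higher and 0 lower at an unadjusted p under 0.05, and 1 rise with DESeq2. Myl7, the atrial myosin light chain, was at 1043 and 548 CPM in m1124 and m1128, against 94.5 to 273 CPM in the other DKO libraries and 94.6 to 201 CPM in controls. Gpr22 among the atrial markers, Ms4a1 among those of lymphocytes, Acta1 among those of skeletal muscle and Alas2 among the erythroid ones are listed at 0 in every library. How reads were counted is not given, so these zeros do not show that the genes were not expressed. The part of atrial tissue in the values of m1124 and m1128 was not tested.

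Several of the rises were largest in the DKO libraries with Y-linked transcripts, m1124 and m1128. Both lay above the other 4 DKO libraries in 55 of the 119 rises (46.2%), against 11.1% of all genes tested. They lay below the other 4 in 15 of the 58 falls (25.9%), against 8.15% of all genes tested. The calls were made from these same values, so genes moved by m1124 and m1128 were more likely to be among the calls. The excess over all genes is thus partly built in. With Y-linked transcripts as a covariate, 133 genes rose and 79 fell, and 116 of the 119 rises and 56 of the 58 falls were among them. The covariate was balanced between the genotypes, so it could hardly move the fold changes. Among the 8 libraries with no Y-linked transcripts, 56 rose and 10 fell, and among the 4 with them, 2 of each genotype, 59 rose and 1 fell. The part of sex in these values was not tested, and with 2 libraries of each genotype it cannot be told apart from what else m1124 and m1128 share.

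Outside the lists, 114 genes were called. By size, the largest rise with at least 5 CPM in DKO was of Vmn2r3 (ENSMUSG00000091572), annotated as a vomeronasal receptor, a family with near-identical copies, so its reads are uncertain. It had 7 counts in controls and 1152 in DKO, a ratio of 153.9 (interval 74.5 to 383.7), and ran from 2.604 to 11.9 CPM (median 6.95) in DKO. Tfcp2l1, a transcription factor of epithelia and stem cells, rose from 1.85–2.81 CPM (median 2.48) in controls to 5.695–10.3 CPM (median 7.79) in DKO (1.65 ± 0.17 (SE, adjusted p = 3.2e-05)). Iqcm, an IQ motif gene, rose from 1.73–2.74 CPM (median 1.98) in controls to 4.97–6.21 CPM (median 5.96) in DKO with close values within each group (1.45 ± 0.13 (SE, adjusted p = 1.5e-05)). For these 3 genes all 6 DKO libraries were above every control, which the rule that named them required. Kctd16, an auxiliary subunit of GABA-B receptors, rose by 1.41 ± 0.22, and Dusp4, a phosphatase of MAP kinases, by 1.41 ± 0.22. Cyb5r1, a cytochrome b5 reductase, rose from 21.8–25.8 CPM (median 25.2) in controls to 42.9–67.01 CPM (median 51.7) in DKO (1.11 ± 0.11 (SE, adjusted p = 2.3e-05)). Slc19a2, a thiamine carrier, rose by 0.70 ± 0.10, and Hebp1, a heme-binding protein, by 0.63 ± 0.12, the latter call ending without m1124 and m1128 (0.53). Bex1 rose by 0.60 ± 0.13, lost without DKO m1092, m1124 or m1128 or control m1064, m1066, m1088 or m1101 (0.56 to 0.60 without 1 of them). Sergef rose by 0.54 ± 0.11, lost without DKO m1092, m1124 or m1128 or control m1022 or m1064 (0.46 to 0.54 without 1 of them).

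The largest falls outside the lists came from genes of varied function. Plekhh1 fell from 11.1–33.9 CPM (median 18.97) in controls to 7.09–11.1 CPM (median 10.3) in DKO (−1.09 ± 0.20 (SE, adjusted p = 0.017)), with control m1101 highest and m1022 close to the DKO values, and lost its call without DKO m1124 (−1.01 without it). Nphp4, a protein of the ciliary transition zone, fell from 4.24–6.43 CPM (median 4.86) in controls to 2.29–3.23 CPM (median 2.63) in DKO (−0.90 ± 0.14 (SE, adjusted p = 0.002)). Ftcd, an enzyme of histidine and folate metabolism, fell from 18.4–24.8 CPM (median 22.2) in controls to 12.2–15.9 CPM (median 13.6) in DKO (−0.69 ± 0.10 (SE, adjusted p = 0.0018)). For these 3 genes all DKO libraries lay below the controls, which the rule that named them required. Tox, an HMG-box nuclear protein, fell by 0.72 ± 0.15 and lost its call without DKO m1124 or m1128 or control m1022, m1064, m1066 or m1101 (−0.72 to −0.66 without 1 of them). Abat, which breaks down GABA, fell by 0.61 ± 0.13 and lost it without DKO m1092, m1124 or m1128 or control m1064, m1066, m1088, m1091 or m1101 (−0.65 to −0.57 without 1 of them). Sdk1, an adhesion molecule of synapses, fell from 73.4–114 CPM (median 86.3) in controls to 52.8–67.6 CPM (median 58.8) in DKO (−0.57 ± 0.10 (SE, adjusted p = 0.01)). Pxylp1, a phosphatase of glycosaminoglycan synthesis, fell by 0.54 ± 0.10, and Akr1b10, an aldo-keto reductase, by 0.51 ± 0.09. The 3 last named lost their calls without m1124 and m1128 together, at −0.52, −0.44 and −0.42. Abca4, a retinal lipid transporter, fell by 0.57 ± 0.12, lost without DKO m1046, m1092, m1124 or m1128 or control m1022, m1064, m1066, m1088 or m1091 (−0.60 to −0.50 without 1 of them). Sobp fell by 0.54 ± 0.12, lost without DKO m1067, m1092, m1124 or m1128 or control m1022, m1064, m1088 or m1101 (−0.57 to −0.48 without 1 of them). Ctxn1 fell by 0.53 ± 0.11, lost without DKO m1092, m1124 or m1128 or control m1022, m1064, m1066 or m1091 (−0.54 to −0.47 without 1 of them). Ncald, a neuronal calcium sensor, fell by 0.52 ± 0.10, lost without DKO m1092, m1124 or m1128 or control m1088 (−0.51 to −0.48 without 1 of them).

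By class, the 177 calls were 155 protein-coding genes (99 up, 56 down), 18 pseudogenes, all higher, and 4 long noncoding RNAs (2 up, 2 down). Pseudogenes share sequence with their parent genes, and how reads that match several places were counted was not given in the sources used here, so their values are uncertain. The pseudogene with the smallest p, Gm9252, rose from 0.121–0.329 CPM (median 0.221) in controls to 2.45–3.41 CPM (median 2.69) in DKO (3.59 ± 0.21 (SE, adjusted p = 5.6e-08)).

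Falls lay in long genes. The median span of protein-coding genes, introns included, was 97.8 kb in the 56 falls and 20.3 kb in the 99 rises, against 26.7 kb in the 14475 tested. In 10 bins of span among protein-coding genes with at least 5 CPM, the median log2 fold change went from 0.04 in the shortest bin (up to 5.52 kb) to −0.09 in the longest (from 144.8 kb). With a trend on span removed from each library, a choice made after seeing the data, 133 genes rose and 50 fell, among them 112 of the 119 rises and 37 of the 58 falls. Cacna1c then was at −0.34 (adjusted p = 0.0072), Palld at −0.35 (adjusted p = 0.021) and Cmya5 at −0.53 (adjusted p = 0.0016). The calls of Cacnb2 (−0.35), Fgf14 (−0.42), Tln2 (−0.29), Rbfox1 (−0.63), Unc45b (−0.23), Clasp1 (−0.24) and Egr1 (0.74) ended, as did those of Tox (−0.65), Abat (−0.55), Abca4 (−0.51) and Sobp (−0.47). The part of RNA quality in this trend was not tested.

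Set beside labelled day 1, where 3053 of the 17352 genes (17.6%) differed, most calls were shared in direction. Of the 119 rises, 103 (86.6%) also rose at labelled day 1 (9.81% of all genes did), and they made up 6.05% of the 1702 rises there. Of the 58 falls, 42 (72.4%) also fell (7.79% of all genes did), which is 3.11% of the 1351 falls. No gene was called in opposite directions. Of the 32 genes called at labelled day 7 and not at labelled day 1, 5 passed the test of the difference itself.

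The effect of the genotype differed between the labelled ages for 187 genes (1.08%), 54 with a higher and 133 (0.766%) with a lower log2 fold change at labelled day 7, and 9 of the 177 genes were among them. Without DKO m1124 and m1128, left out after seeing the data, the count was 49, 8 higher and 41 lower. With protein-coding genes alone it was 48, of which 22 were higher and 26 lower. Leaving out single libraries gave from 90 without DKO m1124 to 287 without labelled day 1 control 13, and the libraries that moved it by over 1.5 times are named with the other settings (libraries of labelled day 1 have plain numbers). All 12 libraries labelled day 1 carried Y-linked transcripts, against 4 of the 12 labelled day 7. A genotype effect that depends on sex thus cannot be told apart from one that depends on labelled age. With Y-linked transcripts as a covariate the count was 177. That fit could hardly move the differences, since the covariate was balanced between the genotypes at each labelled age. Chac1 differed most among the 9, at 5.99 ± 0.32 at labelled day 7 and 1.10 ± 0.36 at labelled day 1, a difference of 4.90 ± 0.59 (adjusted p = 0.00018). Gpt2 was at 1.07 ± 0.11 against 0.21 ± 0.12, with a difference of 0.86 ± 0.16 (adjusted p = 0.0092), and Nupr1 at 3.62 ± 0.23 against 2.02 ± 0.29, a difference of 1.60 ± 0.39 (adjusted p = 0.046). These 3 members of the stress response had the larger effect at labelled day 7. Without m1124 and m1128 the difference of Chac1 held (4.65, adjusted p = 0.001), while Gpt2 (0.77, adjusted p = 0.051) and Nupr1 (1.30, adjusted p = 0.17) missed the threshold. Nupr1 also missed it in 19 of the 24 fits that left out 1 library (all but those without control 13, DKO 35, DKO 79, DKO m1046 or DKO m1067). Phgdh, Asns, Mthfd2 and Slc7a3 had differences with adjusted p from 0.47 to 0.89. Fgf14 fell less at labelled day 7, −0.51 ± 0.11 against −1.67 ± 0.15, and Map1a was at −0.62 ± 0.12 against 0.18 ± 0.15, a difference of −0.79 ± 0.20 (adjusted p = 0.049). Tfcp2l1 rose less, 1.65 ± 0.17 against 3.40 ± 0.39. The other 3 of the 9 were Ctsc, a lysosomal protease (0.47 ± 0.10 against −0.13 ± 0.07), Eif5, a translation initiation factor (0.39 ± 0.08 against −0.22 ± 0.09), and the pseudogene Ftl1-ps2 (0.43 ± 0.08 against 1.30 ± 0.06). Ctsc and Eif5 were named after their values were seen. Without m1124 and m1128 the differences of Fgf14 (1.24) and Ftl1-ps2 (−0.83) held, and those of Map1a (−0.81), Tfcp2l1 (−1.93), Ctsc (0.47) and Eif5 (0.50) did not pass. The difference of Map1a also ended in 22 of the 24 fits that left out 1 library (all but those without control 13 or DKO m1092), and that of Tfcp2l1 in 16 of the 24 fits that left out 1 library (all but those without control 13, DKO 55, DKO 79, control m1088, control m1101, DKO m1046, DKO m1092 or DKO m1128). At labelled day 7 the Ctsc call ended without DKO m1092, m1124 or m1128 or control m1022, m1064, m1066, m1091 or m1101 (0.42 to 0.49 without 1 of them), the Eif5 call without DKO m1046, m1124 or m1128 or control m1022, m1064, m1066, m1088 or m1101 (0.35 to 0.40 without 1 of them), and the Ftl1-ps2 call without control m1088 (0.40 without it).

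**Figure D5:**
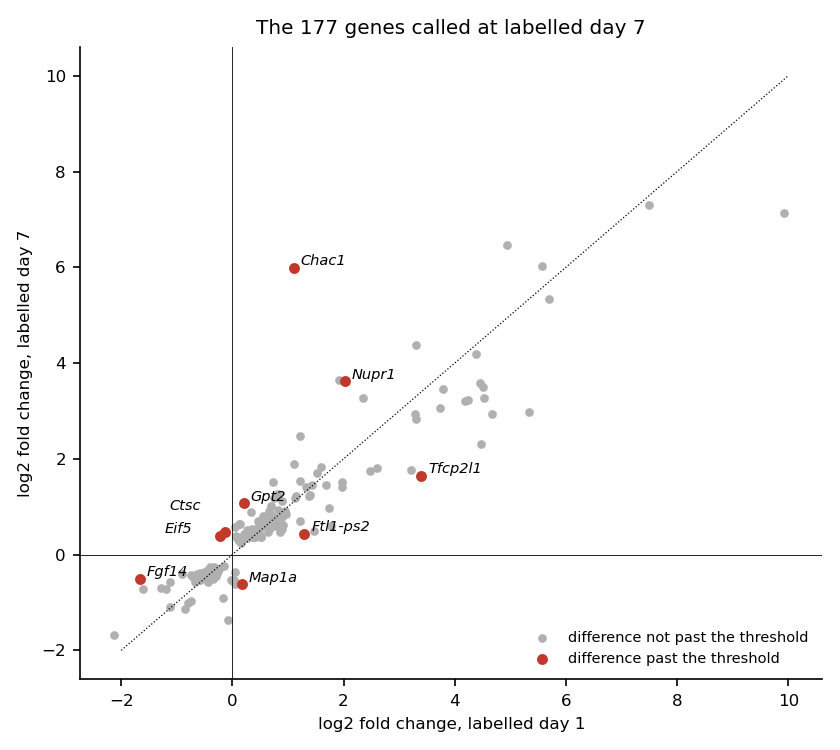
Log2 fold change of DKO minus control at labelled day 7 (y axis) against labelled day 1 (x axis) for the 177 genes called at labelled day 7, with the line of equality dotted. The 9 named genes in red passed the test of the difference, and Chac1 lies furthest above the line.

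Some genes that rose at labelled day 1 had a lower log2 fold change at labelled day 7, with the difference past the threshold. Prune2 was at 0.05 ± 0.09 against 1.75 ± 0.20, and S100a1, a calcium sensor of the sarcoplasmic reticulum, at 0.02 ± 0.07 against 0.63 ± 0.07. Optn, an autophagy receptor, was at 0.27 ± 0.08 against 0.96 ± 0.08, and Shmt1, the cytosolic serine hydroxymethyltransferase, at 0.22 ± 0.09 against 0.89 ± 0.09. The keratins Krt8 and Krt18 were at 0.42 ± 0.25 and 0.89 ± 0.25 against 3.14 ± 0.42 and 3.22 ± 0.31. The skeletal myosins Myh3, Myh1 and Myh4, whose copies are near-identical and whose reads are uncertain, were at 0.42 ± 0.19, 0.50 ± 0.21 and 0.64 ± 0.19 against 2.04 ± 0.23, 1.63 ± 0.13 and 1.70 ± 0.14. None of these 9 genes was called at labelled day 7 with edgeR, while DESeq2 called Krt18 and Myh4, and Krt18 also passed with edgeR without DKO m1046. Without m1124 and m1128 the differences of Shmt1 (−0.59), Myh1 (−1.12) and Myh4 (−1.02) did not pass, and the other 6 did. The difference of Myh4 also ended without control 14, control 56, DKO 69, DKO 79, control m1064, control m1066, control m1091, control m1101, DKO m1026, DKO m1124 or DKO m1128. By class, 87 of the 187 were pseudogenes and 89 protein-coding.

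The effect on 5 of the 11 atrial markers differed between the labelled ages. At labelled day 1 Sln, Myl7, Kcnj3 and Tbx5 fell and Dkk3 did not pass. Sln, sarcolipin, was at 3.06 ± 1.23 against −4.54 ± 0.93, and Myl7 at 1.31 ± 0.61 against −4.42 ± 1.12. At labelled day 7 Sln was at 0.95 and Myl7 at −0.00 without m1124 and m1128. Kcnj3, a potassium channel subunit, was at −0.21 ± 0.19 against −1.51 ± 0.17, Tbx5, a factor of chamber formation, at 0.00 ± 0.18 against −0.88 ± 0.10, and Dkk3, a secreted glycoprotein, at 1.45 ± 0.32 against −0.37 ± 0.18. Dkk3 ran from 30.01 to 43.95 CPM (median 36.5) in controls and from 55.8 to 205 CPM (median 72.6) in DKO at labelled day 7, with 205 and 147 CPM in m1124 and m1128, and passed without these libraries (0.79, adjusted p = 0.0063). Mybphl, a myosin-binding gene, and the calcium channel gene Cacna1g differed likewise, at 2.78 ± 0.92 and −0.62 ± 0.14 against −3.85 ± 0.90 and −1.30 ± 0.09, and Mybphl was at 0.75 at labelled day 7 without m1124 and m1128. Growth factor genes differed as well: Bmp7 was at −0.18 ± 0.09 against 1.15 ± 0.29, and Angpt1, a vessel growth factor, at −0.35 ± 0.12 against −1.15 ± 0.13. Of these 9 differences, that of Dkk3 held without m1124 and m1128 (1.16, adjusted p = 0.034). Those of Sln (5.49), Myl7 (4.41), Kcnj3 (1.14), Tbx5 (0.67), Mybphl (4.61), Cacna1g (0.58), Bmp7 (−1.36) and Angpt1 (0.81) did not pass there. With single libraries left out, the difference of Sln ended without DKO 69, DKO 79, control m1064, control m1091 or DKO m1124, and that of Myl7 without control 25, DKO 29, DKO 69, DKO 79, control m1022, control m1064, control m1066, control m1091, DKO m1124 or DKO m1128. It ended for Tbx5 in 18 of the 24 fits that left out 1 library (all but those without control 62, DKO 55, control m1088, DKO m1026, DKO m1046 or DKO m1092), and for Cacna1g in 21 of the 24 fits that left out 1 library (all but those without DKO 55, control m1101 or DKO m1092). For Bmp7 it ended in 17 of the 24 fits that left out 1 library (all but those without control 13, control 62, DKO 55, DKO 79, control m1088, DKO m1046 or DKO m1092), and for Angpt1 in 13 of the 24 fits that left out 1 library (all but those without control 13, control 14, control 22, control 62, DKO 55, DKO 69, control m1064, control m1088, control m1101, DKO m1046 or DKO m1092).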

How the data were processed

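Polyadenylated RNA of 24 left ventricular samples was sequenced with a low-input kit that does not mark strand. Per the submitters' processing notes, bcl2fastq and STAR 2.4.2a were used with GRCm39. How reads were counted, and on which annotation, is not given in the sources used here. Values as deposited are raw read counts per gene, made by the authors. Nothing in the labels says that replicates came from separate animals, and p-values then reflect only sample-to-sample spread, which may be technical.

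Genes were kept by filterByExpr over all 24 libraries (minimum count 10), which left 17352 of 39396, and 12380 are listed at 0 in all 24. The 12 libraries labelled day 7 were fitted with edgeR 4.0.16 (R 4.3.3), with TMM scaling and the robust quasi-likelihood test. Adjusted p-values are Benjamini-Hochberg over all genes tested, with a threshold of 0.05, and SE was taken from the fold change and the F statistic. The difference between labelled ages was the interaction in a fit of all 24. Levels of single genes are CPM after TMM scaling over all 24 libraries. Summed marker levels are CPM of the deposited library totals, without TMM scaling. Both steps were tested on simulated data. Of the rows, 52 have no symbol, and these stayed in the tests. Within groups, no pair of libraries matched within counting noise (smallest chi-square over its degrees of freedom 5.69).

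The members and lists were chosen with earlier results of these data known. Named genes were core members of each list and up to 5 further members with the smallest p, the 12 largest rises and falls outside the lists with at least 5 CPM in the higher group and no overlap, the 10 smallest p, and, for the difference, the 10 smallest p and list members past the threshold. Not all of them are described. Alternatives were DESeq2 1.42.0, limma-voom (limma 3.58.1), other scaling, filters, gene sets, covariates and left-out libraries. Leaving out m1124 and m1128, splitting by Y-linked transcripts and removing a trend on gene span were added after seeing the data. Gene spans came from GENCODE M21 and promoters from RefSeq, both on GRCm38. Intervals cover counting error only.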

Additional observations from a re-analysis of the deposited data

Results flagged for a closer look

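In 13 of 262 groups of 6 values, 1 library lay further from the rest than Dixon's 95% limit allows, and chance flags about 1 in 20 groups. Control m1101 was high for Adm2 (0.109 CPM, the others at most 0.0365) and Nppa (482 CPM, against 148 to 270 CPM), and low for Akr1b10 (38.4 CPM, against 46.0 to 50.5 CPM) and Mki67 (52.9 CPM, against 128 to 160 CPM). DKO m1026 was high for Pck2 (53.3 CPM) and Dele1 (134.7 CPM) and low for Psat1 (45.8 CPM) and Slc7a11 (11.5 CPM). Control m1091 was low for Fgf14 (29.1 CPM) and Rbfox1 (77.8 CPM). Control m1088 was high for Map1a (27.6 CPM) and DKO m1067 for Atf3 (56.3 CPM), and control m1064 was low for Slc7a3 (0.110 CPM).

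The other flags are genes whose log2 fold change differed between the labelled ages in the test of the difference itself, given as labelled day 7 minus labelled day 1. It was larger at labelled day 7 for Chac1 (4.90), Nupr1 (1.60), Gpt2 (0.86), Ctsc (0.61), Eif5 (0.61), Fgf14 (1.17), Dkk3 (1.82), Kcnj3 (1.31), Tbx5 (0.89), Cacna1g (0.69) and Angpt1 (0.80). For Sln (7.61), Myl7 (5.73) and Mybphl (6.64) the DKO values at labelled day 7 were highest in m1124 and m1128. It was smaller for Tfcp2l1 (−1.74), Map1a (−0.79), Prune2 (−1.69), S100a1 (−0.60), Optn (−0.69), Shmt1 (−0.66), Krt8 (−2.70), Krt18 (−2.32), Myh3 (−1.62), Myh1 (−1.14), Myh4 (−1.06) and Bmp7 (−1.32), and for the pseudogenes Ftl1-ps2 (−0.86) and Gm5560 (−0.68). Without DKO m1124 and m1128, 17 of these 28 differences did not pass.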

How the results depend on the processing

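The count of 177 genes at labelled day 7 became 514 with DESeq2 (319 rises, 195 falls), 419 with all 24 libraries in 1 fit (296 and 123), 77 without DKO m1124 and m1128, 66 in the 8 libraries with no Y-linked transcripts and 60 in the 4 with them. It stayed within 1.5 times with RLE scaling, no filter, a filter over the 12 libraries, limma-voom, protein-coding genes alone, the Y-linked covariate, no robust estimation and the span trend removed. Leaving out each library in turn gave 104 to 302. The count of 187 for the difference became 114 with no filter, 364 with DESeq2, 48 with protein-coding genes alone, 122 with the span trend removed and 49 without DKO m1124 and m1128. Of 28 named differences, 17 ended in the last of these and 10 with a single library left out. Leaving out each of the 24 libraries gave 90 to 287, and it moved by over 1.5 times without labelled day 1 controls 13, 14 or 56, labelled day 1 DKO 69 or 79, controls m1022, m1064, m1066 or m1091, and DKO m1124 or m1128. Of 91 named genes that were called, 24 kept the call in all 25 settings, 41 (these included) kept it with the fit of 4 libraries set aside, and 0 reversed. The settings share libraries with the main fit, so a kept sign was likely in advance. Of 40 named genes not called, 13 passed in some setting. The causes were not tested. No paired analysis was possible because the replicate numbers follow accession order and pair no samples. Genes near 0 in controls, such as Fgf21 with 2 counts, have ratios limited by counting error.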
